A study of Mus musculus with 7 samples.

Results

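Wnt proteins are secreted lipid-modified ligands that drive bone formation. In the beta-catenin branch a ligand joins a Frizzled receptor to Lrp5 or Lrp6, beta-catenin escapes degradation, and it turns on genes together with Tcf and Lef proteins in the nucleus. Many of the genes turned on are feedback inhibitors, and bone is held in balance by secreted antagonists such as the Dickkopf and Sfrp proteins. The planar polarity branch uses Frizzled with Vangl, Prickle and Celsr proteins to orient cells within a tissue. Here 31 genes of these branches were taken by symbol from the 23725 gene IDs counted. All 31 were present: 4 ligands, 2 R-spondins, 4 receptors or co-receptors, 9 antagonists, 3 nuclear effectors, 4 feedback targets and 5 planar polarity genes.

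The cells, labelled osteoblasts, were sorted as GFP-positive cells lacking CD45, CD31 and the erythroid antigen named in the design. They came from digested bone pooled with lineage-depleted marrow, 2000 cells per mouse. GFP was the osteocalcin reporter of the line (Ocn-GFP), so the sort takes cells in which that promoter is or was active. All mice were male, on the C57BL/6 background, and carried floxed p53 alleles. In the 4 tumor-bearing mice an adenovirus with Cre recombinase given into the trachea started lung tumors 14 weeks before collection, and 3 mice were tumor-free; the labels do not say whether the tumor-free mice received a virus. Floxed alleles recombine where the virus reaches, so the bone cells themselves are not labelled as recombined. Age was 23 weeks for 2 mice, 1 in each group (replicate 4 with a tumor and replicate 3 without), and 31 weeks for the rest, and each mouse gave 1 library of transcript 3′ ends.

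Libraries held 77127 to 169774 counts, a 2.20-fold range. The means were 121741 ± 41756 counts with a tumor (SD, n = 4) and 114570 ± 10969 counts without (SD, n = 3), which did not differ beyond the spread (p = 0.800 in a two-sided exact permutation test, whose 35 splits allow a p of 0.0286 at the lowest). Osteoblast markers were counted unevenly. Bglap, the osteocalcin gene behind the reporter, had 0 to 2 counts per library, Sp7 0 to 2 and Alpl 1 to 7. Col1a1 had 23 to 96, Sparc 14 to 70, Ibsp 10 to 51, Runx2 7 to 35, and Col1a2 and Pth1r 11 to 31 each. All 12 osteoblast markers had counts in at least 1 library, summing to 1135 to 1769 CPM (counts per 1e+06 counts of the library, scaled by the TMM method) with a tumor and 1539 to 2588 CPM without. The 6 osteocyte markers summed to 294 to 368 CPM against 370 to 501 CPM. The 8 stromal and adipogenic markers summed to 713 to 1138 CPM with a tumor and 671 to 790 CPM without. Lepr held most of these counts (58 to 123 per library), and Adipoq was at 0. The 6 chondrocyte markers summed to 617 to 2870 CPM and 854 to 1060 CPM, with Sox9 at 41 to 166 counts per library. Of 5 general leukocyte markers 3 were at 0 everywhere and Ptprc had 0 to 2 counts, and of 5 endothelial markers 4 were at 0, Pecam1 among them. The 7 erythroid markers all had counts and summed to 81.9 to 137 CPM with a tumor and 136 to 201 CPM without. Hba-a2 had 2 to 11 counts per library. Other leukocyte lists were not near 0: the 9 monocyte and macrophage markers summed to 1753 to 2469 CPM with a tumor and 1984 to 2131 CPM without, and the 9 neutrophil markers to 1185 to 1961 and 1547 to 1791 CPM. In each of these lists 6 genes were at 0 everywhere, among them Lyz2, S100a8 and Elane, and most counts fell on Ms4a6c (150 to 244 per library) and Cxcr2 (143 to 229); Itgam had 19 to 45 and the T cell gene Cd3d 16 to 34. The part of leukocyte, erythroid, stromal or chondrocyte RNA in the values below was not tested. In bulk RNA of sorted cells, fewer cells of a type and less RNA per cell cannot be told apart.

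Most of the 31 genes were near or below the limit of detection, and 4 of the 31 held nearly all their counts. The 31 genes together had 3193 of 830673 counts, between 0.329% and 0.469% of a library, and Prickle2, Wnt4, Dkk2 and Dkk1 accounted for 92.4% of them. At least 1 count was found for 25 of the 31 genes (80.6%), against 56.2% of all genes, but only 7 of them (22.6%) were seen in all 7 libraries, against 17.7% of all genes. A library showed 11 of the 31 genes at the lowest total and 21 at the highest, and 13 to 17 in between, so a sparse gene that was missed in 1 library need not be absent there. Genes at 0 in all 7 libraries were Wnt10b, a ligand that stimulates bone formation, Rspo3, Fzd1, Dkk3, Apcdd1 and Tcf7. Exons of another annotated gene overlap, on the opposite strand, those of Wnt5a, Rspo3, Sfrp2, Ctnnb1, Lef1, Axin2, Notum and Vangl1. Because the strand setting is not given in the sources, reads of such a pair cannot be told apart; Prickle2, Wnt4, Dkk2 and Dkk1 have no such partner. For each gene at 0, 0 of 830673 counts allows a level of up to 3.61 CPM over the libraries together (3 counts, counting error only). Of 96 further pathway genes, described below, 24 were also at 0 everywhere, among them the intracellular components Dvl1, Dvl2 and Gsk3a. Whether the libraries capture every transcript was not tested, so the bound holds for captured transcripts only.

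**Figure D1:**
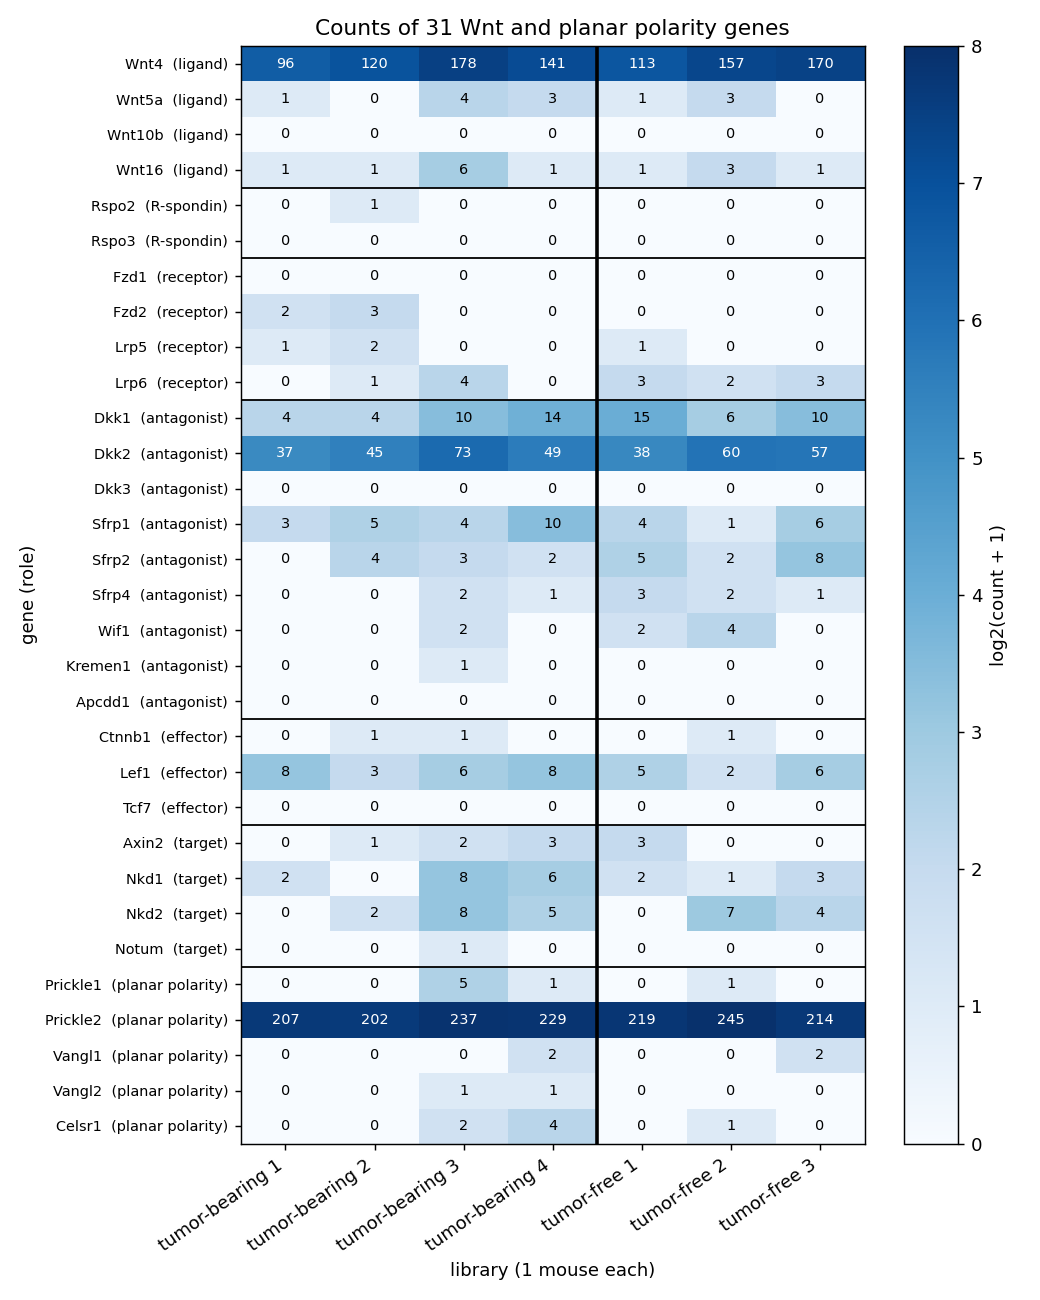
Counts of the 31 genes (rows, grouped by role) in each library (columns, 4 tumor-bearing and 3 tumor-free mice), with colour on a log2(count + 1) scale and the count printed in each cell. Prickle2 (202 to 245 counts), Wnt4 (96 to 178) and Dkk2 (37 to 73) stand out, and 6 rows are 0 throughout.

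Tcf and Lef proteins bind DNA through the core CTTTG followed by A or T bases, and the windows from 250 bases before to 50 bases after annotated gene starts were searched on both strands for the word CTTTGAA, the word CTTTGAT, the word CTTTGTA and the word CTTTGTT. RefSeq (GRCm38.p6) gave 26 windows for 17 of the 31 genes. At least 1 of the 4 words was found in 3 of the 26 windows, 1 each of Dkk1, Lef1 and Prickle2. Over all 32851 windows of this length 16.9% held 1 or more. Of the 4 genes with enough counts to test, Wnt4 and Dkk2 had none of these words in their single windows. The windows of the other two are shown because they are the tested genes that hold the words, which are in capitals. The Prickle2 window belongs to 1 of its 4 annotated starts, and the other 3 windows held none.
Dkk1, chr19:30549447-30549746, minus strand, GRCm38.p6: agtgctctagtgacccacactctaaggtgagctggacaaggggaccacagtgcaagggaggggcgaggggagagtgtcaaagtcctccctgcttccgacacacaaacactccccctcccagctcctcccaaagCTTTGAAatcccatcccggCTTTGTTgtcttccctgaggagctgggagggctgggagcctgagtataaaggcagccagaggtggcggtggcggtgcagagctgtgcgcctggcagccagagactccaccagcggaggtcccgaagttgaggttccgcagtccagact
Prickle2, chr6:92567317-92567616, minus strand, GRCm38.p6: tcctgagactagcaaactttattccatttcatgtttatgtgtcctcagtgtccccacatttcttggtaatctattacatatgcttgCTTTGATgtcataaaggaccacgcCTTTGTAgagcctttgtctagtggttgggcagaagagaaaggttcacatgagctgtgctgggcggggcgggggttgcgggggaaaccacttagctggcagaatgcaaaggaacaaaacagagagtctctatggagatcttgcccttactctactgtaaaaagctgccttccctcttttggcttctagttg
In Dkk1 the words start 117 and 98 bases before the annotated start, and in Prickle2 164 and 140 bases before it. A matching word is a description of the letters and does not show that a protein binds there. Because counts are summed per gene, they do not tell which of the Prickle2 starts was used.

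Among the 4 listed ligands, Wnt4 was the only one counted in quantity. Wnt4 (gene ID 22417; chromosome 4, 137277635 to 137299501, mm10), a ligand that can signal through beta-catenin and through other routes, had 96, 120, 178 and 141 counts in tumor-bearing replicates 1 to 4 and 113, 157 and 170 counts in tumor-free replicates 1 to 3. It ranked 54 among all genes by mean count. Its level was 1317, 1261, 1000.0 and 962 CPM in the tumor-bearing and 1099, 1333 and 1370 CPM in the tumor-free libraries. The groups overlapped: tumor-bearing replicates 1 and 2 lay above tumor-free replicate 1. Means were 1135 ± 180.0 CPM (SD, n = 4) and 1267 ± 147 CPM (SD, n = 3), with a log2 fold change of -0.17 (SE 0.19; 95% interval -0.62 to 0.27; edgeR quasi-likelihood test, adjusted p = 0.990).

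The other listed ligands had a few counts at most. Outside the list, Wnt3 had 120 counts over all libraries and could be tested (log2 fold change -0.51, SE 0.55). Wnt16, a ligand of the osteoblast lineage that protects cortical bone, had 1, 1, 6 and 1 counts in tumor-bearing replicates 1 to 4 and 1, 3 and 1 in tumor-free replicates 1 to 3, so it was seen in every library without reaching a level that could be compared. Wnt5a, which signals mainly without beta-catenin, had 1, 0, 4 and 3 counts against 1, 3 and 0. Of the R-spondins, which amplify Wnt signals by keeping Frizzled receptors on the cell surface, Rspo2 had 1 count in tumor-bearing replicate 2 and 0 elsewhere.

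Transcripts of the 4 listed receptors were sparse too. Lrp6, a co-receptor for Wnt ligands, had 0, 1, 4 and 0 counts with a tumor and 3, 2 and 3 without, 13 in all. Its relative Lrp5, whose activity sets bone mass in mice and people, had 1, 2, 0 and 0 counts against 1, 0 and 0. Fzd2 had 5 counts, all from tumor-bearing replicates 1 and 2. None of these counts exceeded 4 in a library, and these receptors therefore entered no test. Receptors outside the list were better counted. Over all libraries Lgr5 had 673 counts, Lrp4 571, Fzd3 477, Lgr4 247 and Fzd5 116, and these 5 were tested.

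Among the antagonists Dkk2 had the most counts. Dickkopf proteins bind Lrp5 and Lrp6 and block them, and Dkk2 is also needed for osteoblasts to mineralise their matrix. Dkk2 (gene ID 56811; chromosome 3, 132085266 to 132180304) had 37, 45, 73 and 49 counts in tumor-bearing replicates 1 to 4 and 38, 60 and 57 in tumor-free replicates 1 to 3. In CPM these were 507, 473, 410.1 and 334 against 370, 509 and 459, so the lowest and next lowest values came 1 from each group and the ranges overlapped. The means of 431 ± 76.2 CPM (SD, n = 4) and 446 ± 70.8 CPM (SD, n = 3) differed by less than the spread within either group (log2 fold change -0.09, SE 0.24; 95% interval -0.64 to 0.46; edgeR adjusted p = 0.990).

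Dkk1 (gene ID 13380; chromosome 19, 30545876 to 30549496), a Dickkopf inhibitor made by osteoblasts and osteocytes that restrains bone formation, had 4, 4, 10 and 14 counts with a tumor and 15, 6 and 10 without. Its level was 54.9, 42.0, 56.2 and 95.5 CPM in tumor-bearing replicates 1 to 4 and 146, 50.9 and 80.6 CPM in tumor-free replicates 1 to 3. Tumor-free replicate 1 was the highest of the 7, and the other tumor-free libraries lay within the tumor-bearing range. Means were 62.1 ± 23.1 CPM (SD, n = 4) and 92.5 ± 48.6 CPM (SD, n = 3), and the log2 fold change of -0.49 had an interval of -1.62 to 0.65 (SE 0.49; edgeR adjusted p = 0.990). Without tumor-free replicate 1 the log2 fold change was 0.15, so that library set its direction.

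The Sfrp proteins resemble the ligand-binding part of Frizzled and trap Wnt ligands outside the cell. Sfrp1 had 3, 5, 4 and 10 counts with a tumor and 4, 1 and 6 without, and was present in all 7 libraries. Sfrp2 had 0, 4, 3 and 2 counts against 5, 2 and 8, which is 18.1 ± 17.5 CPM (SD, n = 4) and 43.4 ± 24.2 CPM (SD, n = 3) with overlapping values. Sfrp4 had 9 counts in all and Wif1, a secreted inhibitor that binds Wnt ligands directly, had 8, of which 6 were in tumor-free replicates 1 and 2. Kremen1, a membrane receptor for Dickkopf proteins, had 1 count. Its relative Kremen2, outside the list, had 226 counts over all libraries and was tested (log2 fold change 0.001, SE 0.28). Exons of another annotated gene overlap Kremen2 on the opposite strand. A value of 3 counts is worth 17.7 CPM of the unscaled total in tumor-bearing replicate 3 and 38.9 CPM in tumor-bearing replicate 1, so differences of this size between single libraries were not detectable.

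Of the 3 listed nuclear effectors Lef1, a DNA-binding partner of beta-catenin, was seen in every library. It had 8, 3, 6 and 8 counts with a tumor and 5, 2 and 6 without. Its level was 57.4 ± 36.4 CPM (SD, n = 4) and 38.0 ± 18.2 CPM (SD, n = 3), and the groups overlapped. Ctnnb1, which encodes beta-catenin itself, had 3 counts over all libraries, 1 each in tumor-bearing replicates 2 and 3 and tumor-free replicate 2. Ctnnb1 is a widely expressed gene, so a low count in these libraries cannot be read as lack of the protein. Outside the list, the Tcf genes Tcf7l2 and Tcf7l1 had 858 and 508 counts over all libraries. Both could be tested, with log2 fold changes of -0.18 (SE 0.30) and -0.29 (SE 0.36).

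The 4 listed feedback targets, which rise when the beta-catenin branch is active and serve as its readout, were all too sparse to test. Axin2, a scaffold of the complex that degrades beta-catenin and its most used target gene, had 0, 1, 2 and 3 counts with a tumor and 3, 0 and 0 without. Nkd1 and Nkd2, which bind Dishevelled and damp the signal, were better counted. Nkd1 had 2, 0, 8 and 6 counts in tumor-bearing replicates 1 to 4 and 2, 1 and 3 in tumor-free replicates 1 to 3, or 28.3 ± 20.3 CPM (SD, n = 4) against 17.4 ± 8.05 CPM (SD, n = 3). Nkd2 had 0, 2, 8 and 5 counts against 0, 7 and 4, or 25.0 ± 19.3 CPM (SD, n = 4) against 30.6 ± 29.7 CPM (SD, n = 3). For both genes the highest tumor-bearing value came from replicate 3, the deepest library, in counts (8) and also in CPM (44.9). Notum, an enzyme that removes the lipid of Wnt ligands, had 1 count in that same library. The 4 listed targets thus held 58 counts between them, which is too few to say whether the branch was more or less active with a tumor. Of 8 further targets 1 was tested, Bambi, with 70 counts over all libraries (log2 fold change 0.15, SE 0.33; edgeR adjusted p = 0.990).

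Among planar polarity genes Prickle2 was one of the most highly counted genes of the whole data set, while its partners were almost uncounted. Prickle2 (gene ID 243548; chromosome 6, 92370891 to 92706334) encodes a cytoplasmic protein of the polarity complex and ranked 7 of all genes by mean count. It had 207, 202, 237 and 229 counts in tumor-bearing replicates 1 to 4 and 219, 245 and 214 in tumor-free replicates 1 to 3. Its close relative Prickle1 had 7 counts in all, 5 of them in tumor-bearing replicate 3. Vangl1 and Vangl2, membrane proteins that bind Prickle, had 4 and 2 counts over the 7 libraries, and Celsr1, the cadherin that links polarity complexes of neighbouring cells, had 7, of which 4 were in tumor-bearing replicate 4.

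The counts of Prickle2 hardly followed library size. Its highest count was 1.21 times its lowest, and tumor-bearing replicate 3 had 1.14 times the count of tumor-bearing replicate 1 at 2.20 times the total. In CPM the tumor-bearing libraries therefore spread from 1331 in replicate 3, the deepest, to 2839 in replicate 1, the shallowest, with 2123 in replicate 2 and 1562 in replicate 4; the tumor-free values of 2130, 2080 and 1725 CPM lay inside that range. For Wnt4 and Dkk2 the same ratio of counts was 1.85 and 1.97. Over all genes this ratio had a median of 2.84 for the 1325 genes with a mean of 10 to 30 counts. It was 2.43 for the 544 genes with 30 to 60, Dkk2 among them, and 2.03 for the 475 genes with 60 to 120. The median was 1.78 for the 91 genes with 120 to 200 and 1.32 for the 10 genes with 200 to 400. Why counts of the highest genes rose less than the totals was not tested. Among the tumor-bearing libraries the order of Prickle2 in CPM is the reverse of that in total counts. Wnt4 and Dkk2 were also higher in CPM in replicates 1 and 2, the shallower of these libraries, than in replicates 3 and 4. In the tumor-free group both were lowest in replicate 1, the shallowest. Whether the counts of Prickle2 respond better to a change in the transcript than to depth was not tested, which limits any comparison of Prickle2 between groups.

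**Figure D2:**
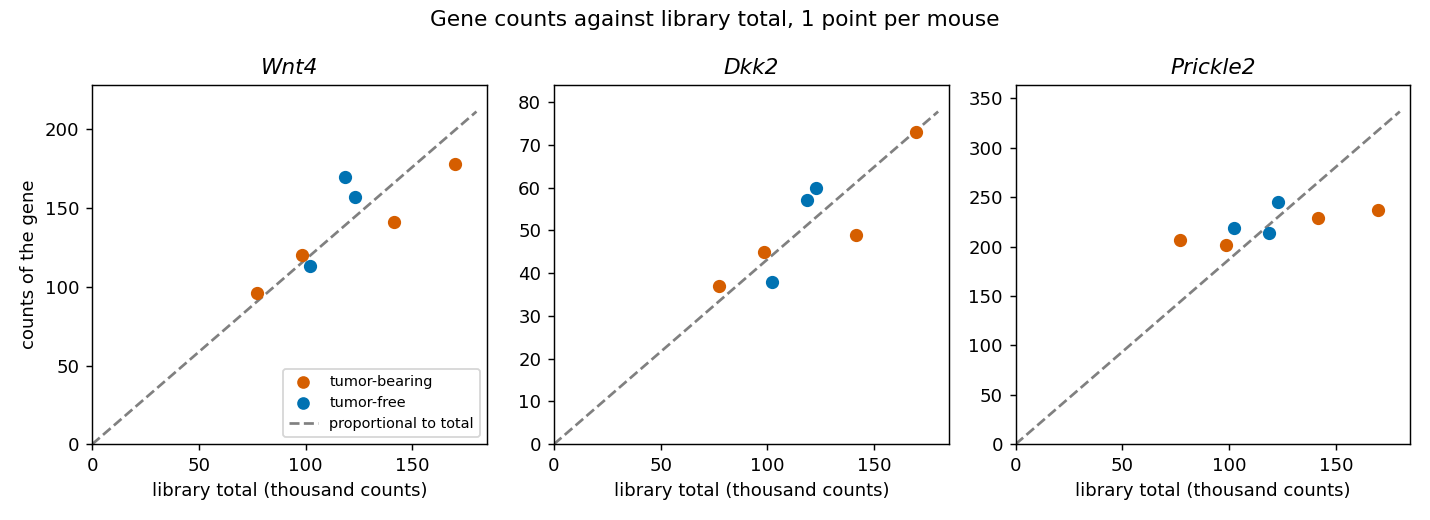
Counts of Wnt4, Dkk2 and Prickle2 (vertical axes, linear, from 0) against the total counts of each library (horizontal axes), 1 point per mouse, with a dashed line for counts proportional to the total. Wnt4 and Dkk2 followed the total more closely than Prickle2, which stays between 202 and 245 counts over the whole depth range.

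Within that limit, Prickle2 values of the groups overlapped on both scales. The means were 1964 ± 672 CPM with a tumor (SD, n = 4) and 1978 ± 221 CPM without (SD, n = 3), with a log2 fold change of -0.05 (SE 0.25; 95% interval -0.63 to 0.52; edgeR adjusted p = 0.990). The unscaled counts averaged 219 ± 16.9 (SD, n = 4) and 226.0 ± 16.6 (SD, n = 3). Per kilobase of the longest annotated transcript, levels over the 7 libraries were 284 ± 40.2 CPM for Wnt4, 251 ± 62.6 CPM for Prickle2, 118 ± 18.4 CPM for Dkk2 and 31.0 ± 14.96 CPM for Dkk1 (SD, n = 7). Wnt4 and Prickle2, neighbours in that order, did not differ beyond their spread. Libraries of 3′ ends need not scale with transcript length, so this order holds on the per-kilobase scale only.

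**Figure D3:**
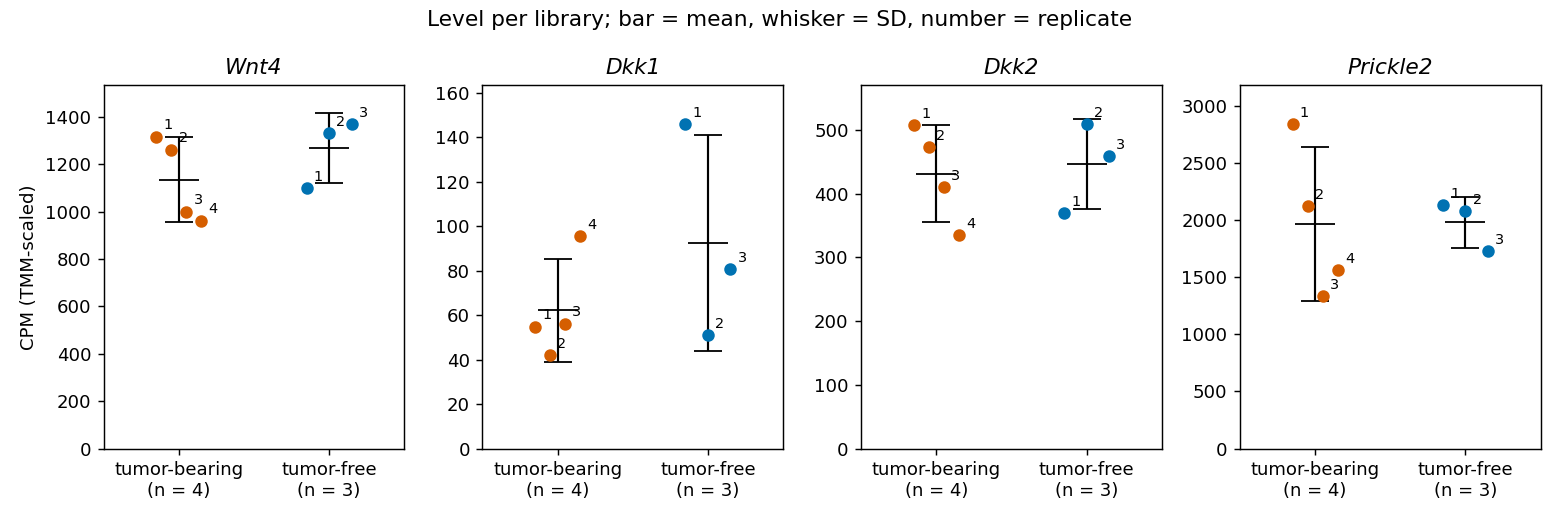
Level in CPM (vertical axes, linear, from 0) of the 4 genes that passed the low count filter, with 1 numbered point per library, the mean as a bar and the SD as whiskers, for 4 tumor-bearing and 3 tumor-free mice. The groups overlap for all 4 genes, and Prickle2 spreads most among the tumor-bearing libraries, from 1331 to 2839 CPM.

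In the comparison of tumor-bearing with tumor-free mice, which asks whether a distant lung tumor changes osteoblast transcripts, no Wnt or planar polarity gene passed the test. The low count filter left 2495 genes, 4 of the 31 among them, and 0% of the 2495 were called (edgeR with an age term, Benjamini-Hochberg adjusted p under 0.05). At an unadjusted p under 0.05 there were 67 of the 2495 genes (2.69%) and 0 of the 4, and DESeq2 and limma voom also called 0% of genes. All 4 log2 fold changes were below 0, with a median of -0.13, where the median of all genes tested was 0.04 and 45.9% of them were below 0. The groups overlapped for all 4, whereas they did not overlap for 3.53% of the genes tested. With no low count filter 25 of the 31 could be fitted, and 0 of them had an unadjusted p under 0.05 (lowest 0.0916, for Fzd2), against 3.43% of the 13344 genes fitted. The 95% intervals of Wnt4 and Dkk2 ran from -0.64 at the lowest to 0.46 at the highest on the log2 scale, and that of Dkk1 was wider, so differences within those bounds were not resolved by these libraries. Counts of Wnt4 and Dkk2 rose 1.85-fold and 1.97-fold between tumor-bearing replicates 1 and 3, where the total rose 2.20-fold. Whether depth also affects their bounds was not tested. No such bound is read from Prickle2.

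Beyond the 31 genes, 96 further genes of the pathway in the files were examined, 17 of which could be tested. None was called in either direction (edgeR, 0 higher and 0 lower), 8 had log2 fold changes above 0 and 9 below, and their median was -0.03. Of 16 further receptors 5 were tested, of 29 intracellular components 5, of 16 planar polarity genes 3, of 8 antagonists 2, of 15 ligands 1 and of 8 targets 1.

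The smallest p-values on the lower side belonged to Ctbp2, Lrp4 and Znrf3. Ctbp2, a nuclear co-repressor, had 68.6, 42.0, 258 and 13.6 CPM in tumor-bearing replicates 1 to 4 and 924, 110.4 and 56.4 CPM in tumor-free replicates 1 to 3 (log2 fold change -1.86, SE 0.88; edgeR adjusted p = 0.990). Tumor-free replicate 1 held 95 of its 172 counts, and without it the value was -0.13; exons of Fgfr2 overlap Ctbp2 on the same strand in the annotation, so their reads may be shared. Lrp4, a co-receptor that anchors the antagonist sclerostin, had 699.5, 589, 522 and 416 CPM against 1722, 628 and 475 CPM (log2 fold change -0.76, SE 0.38; edgeR adjusted p = 0.990). Again tumor-free replicate 1 was far above the rest, and without it the value was -0.10. Znrf3, a ubiquitin ligase that removes Frizzled receptors and is itself the target of R-spondins, had 286.5 to 341 CPM with and 306 to 564 CPM without a tumor (-0.39, SE 0.27). Its value was -0.13 when tumor-free replicate 1 was left out, -0.63 when tumor-free replicate 3 was, and -0.69 when tumor-bearing replicate 4 was.

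On the higher side stood Invs, Intu and Fzd3. Invs, a ciliary protein that favours the polarity branch over the beta-catenin branch, had 82.3, 126, 107 and 205 CPM with and 97.3, 67.9 and 88.6 CPM in the absence of one, a log2 fold change of 0.68 (SE 0.33; edgeR adjusted p = 0.990). The highest value came from tumor-bearing replicate 4 and the groups overlapped; exons of Tex10 overlap it on the opposite strand. The value was 0.32 without tumor-bearing replicate 4, 0.38 without tumor-free replicate 3, 0.36 in the 31-week-old mice alone and 0.28 in the fit with a replicate block. Intu, a polarity effector needed for cilia, had 137 to 437 CPM against 178 to 306 CPM (0.35, SE 0.35). Its value was 0.11 when tumor-bearing replicate 3 was left out, 0.20 when replicate 4 of that group was, 0.19 when tumor-free replicate 2 was, and 0.56 when tumor-free replicate 1 was. Fzd3, a receptor of the polarity branch, had 274, 1955, 376 and 321 CPM against 574, 229 and 572 CPM (0.53, SE 0.82), and the value was -0.01 without tumor-free replicate 2 and -0.49 without tumor-bearing replicate 2. In the latter library the 6 chondrocyte markers summed to 2870 CPM, against 617 to 1060 CPM in the other 6 libraries, with Col10a1 at 0 everywhere; their part in the Fzd3 value was not tested.

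**Figure D4:**
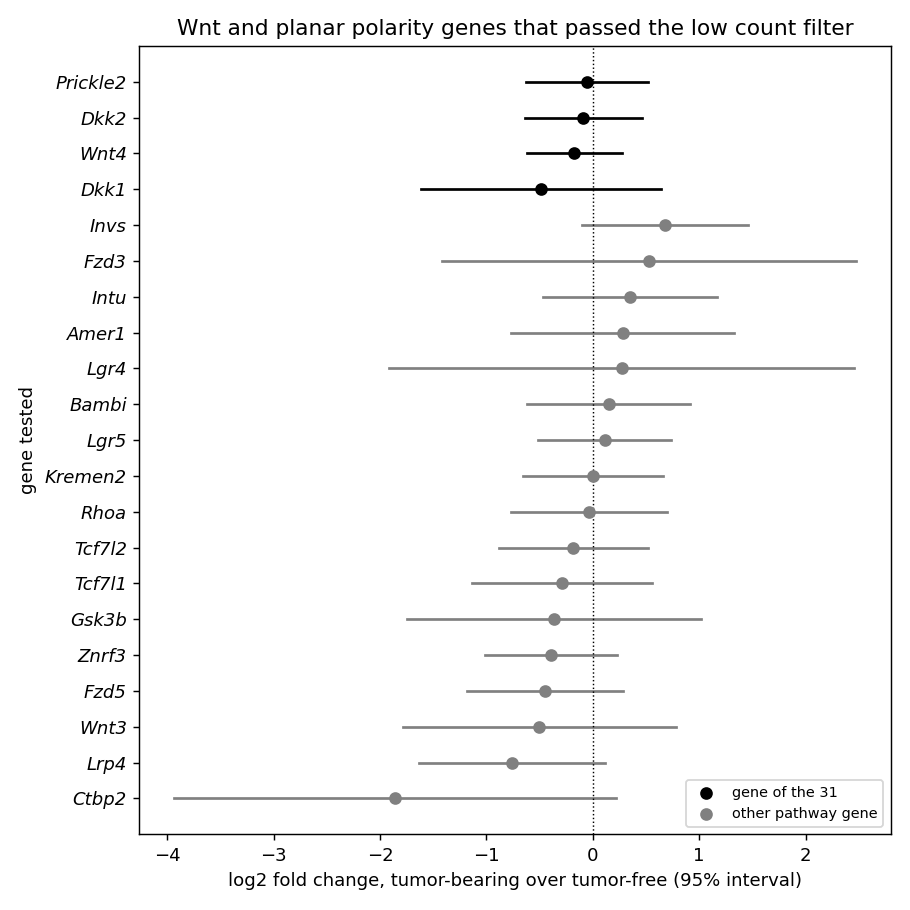
Log2 fold change of tumor-bearing over tumor-free mice with 95% intervals (horizontal axis) for the 4 tested genes of the 31 (black) and 17 further pathway genes (grey), from the edgeR fit over 2495 genes. Every interval includes 0; Wnt4 has the narrowest of the black ones (-0.62 to 0.27) and Ctbp2 the widest lower reach.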

How the data were processed

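A custom CEL-Seq protocol with unique molecular identifiers turned the RNA into 3′ end libraries, per the labels' protocols. Per the submitters' processing notes, TopHat2 2.0.10, SAMtools and build mm10 were used. Not given in the sources used here are the counting program, the annotation, the strand setting and the handling of the identifiers. The authors deposited whole-number counts per Entrez gene ID, not normalized. Counting errors are therefore errors of counts. With 1 library per mouse, p-values rest on the spread between libraries. Differences between mice, sorts and library preparations cannot be told apart in that spread. Symbols and coordinates came from RefSeq (GRCm38.p6, the assembly of mm10) for 23666 of 23725 IDs, and transcript lengths and exon overlaps from GENCODE vM21.

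Genes were filtered with filterByExpr (minimum count 10, minimum total 15), scaled by TMM and tested with glmQLFit (robust) and glmQLFTest of edgeR 4.0.16 in R 4.3.3, with age as a factor, over all genes, adjusted by Benjamini-Hochberg at 0.05. Fold changes divide tumor-bearing by tumor-free. CPM use TMM-scaled totals. The fit was tested on simulated counts. Alternatives were no age term, a block for the replicate number, the 31-week-old mice alone, limma 3.58.1 voom with quality weights, DESeq2 1.42.0, scaling by totals or by RLE, no filter, at least 30 counts in 3 libraries as the filter, and each library left out. A fit without tumor-bearing replicates 1 and 3, the ends of the depth range, was added after seeing the data.

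The 31 genes, the further pathway genes and the markers were chosen with earlier results of these data known. All 31 genes were named, those past the filter with every library's value. Of the further pathway genes the 3 with the smallest p in each direction were named. Of 97 further pathway genes listed, 96 were in the files. Replicate numbers did not pair the mice. Part of the genotype shared by all mice is not reported here.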

Additional observations from a re-analysis of the deposited data

Results flagged for a closer look

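Of 16 quantities looked at within the tumor-bearing group, 1 had a library far from the others relative to the range of the group, and chance alone would flag about 1 in 20. This was Fzd3, at 1955 CPM in tumor-bearing replicate 2 where the other tumor-bearing libraries had 274 to 376 CPM. Pathway genes below the low count filter had such libraries too. Wnt5b had 63 of its 67 counts, and Sostdc1 169 of its 197 counts, in tumor-bearing replicate 3.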

How the results depend on the processing

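No fit called any gene, in any of the 17 alternatives run. Of the 31 genes, 3 to 4 were tested in each alternative except that with no filter, which fitted 25; Dkk1 fell below the filter in 5 of them. Wnt4 stayed below 0 in all 17 alternatives (-0.29 to -0.04 with 1 library left out). Leaving out 1 library at a time gave log2 fold changes of -0.88 to 0.15 for Dkk1, -0.26 to 0.060 for Dkk2, -0.27 to 0.048 for Prickle2 and -0.49 to 1.10 for Fzd3, so the direction of each of these turned in at least 1 such fit. Dkk1 turned without tumor-free replicate 1, Dkk2 without tumor-free replicate 3 or tumor-bearing replicate 4, and Prickle2 without tumor-bearing replicate 3. In 31-week-old mice alone Dkk2 was at 0.043. Without tumor-bearing replicates 1 and 3, Prickle2 was at -0.06. The difference in library totals ranged from -8840 to 22043 counts with 1 library left out and was negative without tumor-bearing replicate 3. The causes were not tested.

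With the replicate number as a block (tumor-bearing replicate 4, which has no partner of that number, left out, and no age term) 0 genes were called, Wnt4 was at -0.15, Prickle2 at -0.03 and Intu turned to -0.026. This block joins tumor-bearing replicate 3, aged 31 weeks, to tumor-free replicate 3, aged 23 weeks. Age and tumor cannot be told apart within that pair. Same-numbered mice did not deviate together (correlations of -0.21, -0.12 and -0.15 over genes), so the numbers were not taken as pairs.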
